A study of Homo sapiens with 4 samples.

Results

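The genes described here are 10 targets and brakes of the ERK MAP kinase pathway: DUSP4, DUSP5, DUSP6, SPRY2, SPRY4, SPRED1, SPRED2, ETV4, ETV5 and PHLDA1. They were taken by symbol from the 19215 genes of the authors' table, and all 10 were listed there. The cells are C28/I2, an established line of immortalised human chondrocytes. They spent 48 h with 25 ng/mL of FABP4, the fatty acid-binding protein secreted by adipocytes, or 48 h with 0.5% DMSO. Each condition has 2 RNA-seq libraries of total RNA, all from medium with serum, and the comparison asks how the transcripts of FABP4 cells differ from those of DMSO cells. No label says that the FABP4 cells also received DMSO, so a difference of vehicle and an effect of the protein cannot be told apart, and whether the replicates were separate cultures is not given in the sources used here.

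ERK is the last kinase of a cascade that runs from growth factor receptors through RAS, RAF and MEK. Active ERK raises transcription of several proteins that shut the cascade down again, so the transcripts of these feedback genes are widely read as a gauge of pathway output. The DUSP members are phosphatases that remove the activating phosphates from MAP kinases, the Sprouty and SPRED proteins hold back signalling at the level of RAS and RAF, and ETV4 and ETV5 are ETS transcription factors of the PEA3 group. In cartilage this pathway carries signals of fibroblast growth factors.

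The members were proposed with results of this same comparison known. Their differences between FABP4 and DMSO cells are therefore given as a description, and no test of them is offered as support. Levels are in FPKM, a fragment count divided by transcript length and library size, so they can be set side by side between genes. Means are given ± SD over n = 2 libraries. The depth, estimated from low FPKM values, came to about 12175000 and 11275000 fragments in the FABP4 libraries (replicate 1 first, as throughout) and 12725000 and 13025000 in the DMSO libraries. Of 12 chondrocyte markers, SOX9 and ACAN reached 1 FPKM in at least 2 libraries, while COL9A1 and CNMD were at 0 in every library. COL2A1, which encodes the main cartilage collagen, had 0.05 and 0 FPKM in FABP4 cells, against 0 and 0.02 FPKM in DMSO cells, so a defining marker of the labelled cell type was near 0. The summed level of the chondrocyte markers was 12.9 and 15.7 FPKM in FABP4 cells, against 16.8 and 16.4 FPKM in DMSO cells, and its part in the results below was not tested. None of 5 epithelial and none of 4 endothelial markers reached 1 FPKM in 2 libraries, while 4 of 7 fibroblast markers, 1 of 4 immune markers (CD68) and 1 of 4 adipocyte markers (FABP4 itself) did. The cells' own FABP4 transcript had 1.03 and 0.56 FPKM in FABP4 cells, against 2.10 and 1.93 FPKM in DMSO cells (log2 fold change -0.76 on the log2(FPKM + 1) scale, SE 0.16, limma adjusted p = 0.0377). That call was lost when FABP4 replicate 2 (limma adjusted p = 0.212), DMSO replicate 1 (0.129) or DMSO replicate 2 (0.113) was left out, its alternatives spanned 0.000626 to 0.564, and its part in the results below was not tested.

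Within the 10 genes the data show a split. ETV5, SPRY4 and DUSP5 lay lower in FABP4 cells, at 0.620, 0.476 and 0.661 times their DMSO means. DUSP6, SPRY2 and PHLDA1 stood at 1.06, 0.993 and 1.01 times their DMSO means. Of these, DUSP6 is a phosphatase gene like DUSP5, and SPRY2 a Sprouty gene like SPRY4. SPRED1, SPRED2 and DUSP4 lay a little lower, and ETV4 had overlapping groups with a wide spread. In bulk RNA, fewer cells that express a gene and less of its RNA per cell cannot be told apart.

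Upstream sequence is shown for the Sprouty genes because they are the closest relatives on opposite sides of that split. RefSeq promoters (build GRCh38.p14) were available for 6 of the 10 members, in 9 windows of 250 bases before a transcript start. No window was available for DUSP4, DUSP5, ETV4 or ETV5, so of ETV5, SPRY4 and DUSP5 only SPRY4 is covered by the searches below. Printed 5′ to 3′ are the bases that lie outside GENCODE 29 exons, on the minus strand, with the ETS core GGAA or its reverse complement TTCC in capitals. The SPRY2 stretch is chr13:80341127-80341376, the whole window of the most upstream SPRY2 start. The SPRY4 stretch is chr5:142324418-142324497, from 250 to 171 bases before the start, since 170 bases of that window are exonic. The SPRY4 window belongs to an internal start, inside the GENCODE span of the gene (142310427 to 142326455). Bases upstream of that span were therefore not searched. The SPRY2 stretch lies upstream of the GENCODE span of SPRY2, which ends at 80340951, so the stretches are not at like positions.
SPRY4: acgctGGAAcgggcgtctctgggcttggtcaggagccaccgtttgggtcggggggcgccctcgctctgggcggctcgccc
SPRY2: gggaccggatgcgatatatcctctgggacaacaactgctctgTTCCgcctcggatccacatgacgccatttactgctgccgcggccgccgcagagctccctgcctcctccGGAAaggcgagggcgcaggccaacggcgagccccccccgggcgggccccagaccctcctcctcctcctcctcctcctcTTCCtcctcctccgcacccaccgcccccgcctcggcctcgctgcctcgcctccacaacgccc

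The full SPRY4 window held 2 ETS cores, a number that 76.5% of 35116 promoters of the same length reach or exceed. The SPRY2 window printed above held 3, reached or exceeded by 55.1%, and the other SPRY2 windows held 4 each, reached or exceeded by 34.3%. The DUSP6 window, all of whose 250 bases are exonic in GENCODE 29, held 6, reached or exceeded by 9.14%. The SPRED2 windows held 4 and 5, reached or exceeded by 34.3% and 18.6%, and 38 bases of the window with 4 are exonic. The PHLDA1 window held 4 (34.3%) and the SPRED1 window 3 (55.1%), and all 250 bases of each are exonic. These counts are a description of letters and do not mark bound sites. On both strands, 5 longer motifs were searched in the 9 windows: the ETS site CCGGAAGT, the sites TGAATGAA and TGAATGGA of the repressor CIC, the AP-1 site TGANTCA and the cyclic AMP element TGACGTCA. None of these words occurred in the 9 windows. Among all 35116 promoters, 3.42% held the ETS site, 1.4% and 0.832% the CIC sites, 6.57% the AP-1 site and 1.65% the cyclic AMP element.

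Levels of the members spanned a wide range. PHLDA1, whose protein has a pleckstrin homology-like domain, was the most abundant of the 10 in both conditions, with 59.3 ± 2.79 FPKM in FABP4 cells and 58.7 ± 4.71 FPKM in DMSO cells. In FABP4 cells the order then ran SPRED2, DUSP5, SPRY2, ETV5, SPRED1, DUSP6, DUSP4, ETV4 and SPRY4. In DMSO cells it ran DUSP5, SPRED2, ETV5, SPRY2, SPRED1, DUSP6, SPRY4, DUSP4 and ETV4. Several neighbours in these orders did not differ beyond their spread: in FABP4 cells this held for ETV5 (4.08 ± 0.516 FPKM), SPRED1 (3.99 ± 0.0636 FPKM) and DUSP6 (3.84 ± 0.502 FPKM). It held there also for ETV4 (1.04 ± 0.743 FPKM) beside DUSP4 (1.31 ± 0.0424 FPKM) and beside SPRY4 (0.840 ± 0.156 FPKM). In DMSO cells it held for DUSP4 (1.53 ± 0.163 FPKM) and ETV4 (1.51 ± 0.389 FPKM).

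**Figure D1:**
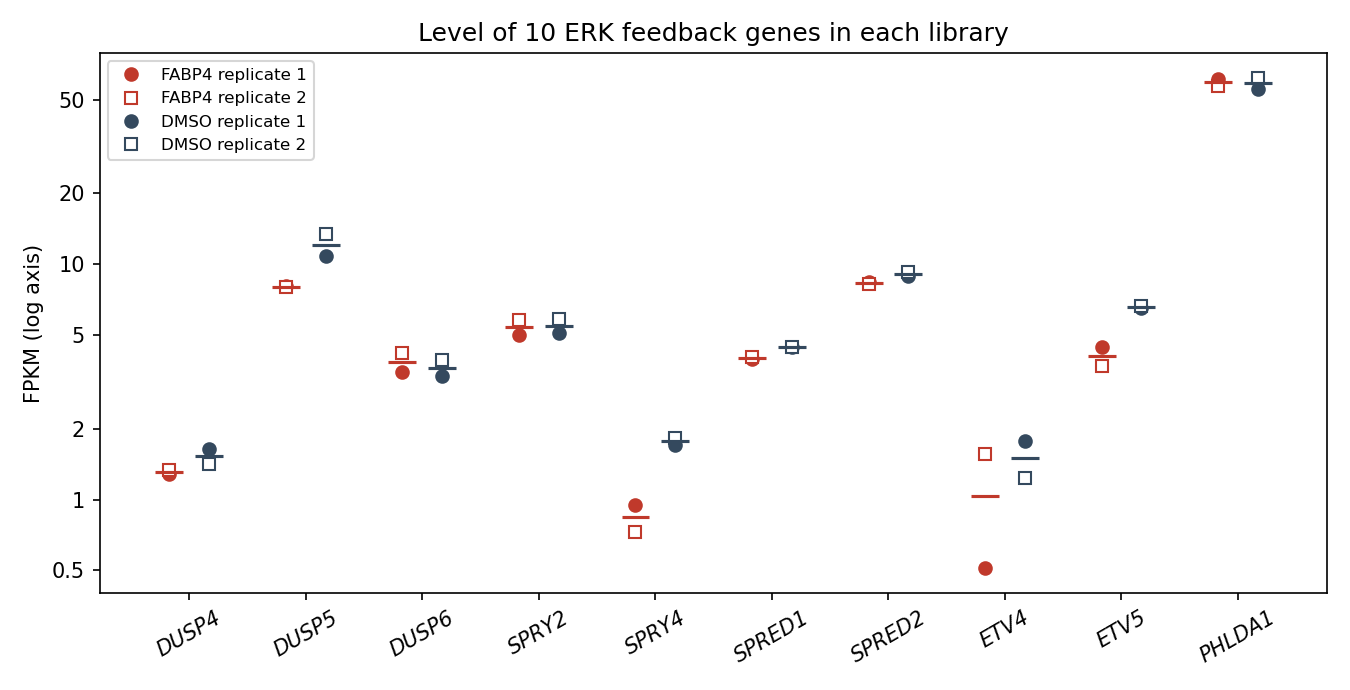
FPKM on a log axis of the 10 genes in each library, FABP4 in red at the left of each gene and DMSO in dark blue at its right, circles for replicate 1, squares for replicate 2 and bars for the mean of 2 libraries. SPRY4, ETV5 and DUSP5 have FABP4 libraries clearly under the DMSO libraries, PHLDA1 lies between 55.4 and 62.1 FPKM in all 4, and ETV4 spreads from 0.51 to 1.78 FPKM.

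The phosphatases differ in where they act: DUSP5 and DUSP4 are nuclear, and DUSP6 is cytoplasmic. DUSP5 (gene ID 1847, chromosome 10, 110497838 to 110511544, GRCh38) had 8.04 and 7.99 FPKM in FABP4 cells, against 10.81 and 13.43 FPKM in DMSO cells. The FABP4 libraries were nearly equal, and the gap to the DMSO libraries came with a wide DMSO spread, so the ratio over single library pairs ran from 0.595 to 0.744. Its log2 fold change, on the log2(FPKM + 1) scale used for all fold changes here, was -0.53 (SE 0.13) and became -0.39 without DMSO replicate 2. DUSP6 had 3.48 and 4.19 FPKM in FABP4 cells, against 3.34 and 3.91 FPKM in DMSO cells, so the groups overlapped and replicate 2 was the higher library in each. Of the exonic bases of DUSP6, 40.5% lie opposite the exons of an antisense transcript, and without a stated strand setting its reads cannot be told from those of that transcript. DUSP4 had 1.28 and 1.34 FPKM in FABP4 cells, against 1.64 and 1.41 FPKM in DMSO cells. Those groups did not overlap, but the nearest libraries had a ratio of 0.950.

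The Sprouty genes, which encode inhibitors of receptor tyrosine kinase signalling, went separate ways. SPRY4 (gene ID 81848, chromosome 5, 142310427 to 142326455, GRCh38) had 0.95 and 0.73 FPKM in FABP4 cells, against 1.71 and 1.82 FPKM in DMSO cells. All ratios over single library pairs lay between 0.401 and 0.556, the lowest mean ratio among the 10 genes. Its level is low: if all reads came from its longest GENCODE transcript, the estimated depths put about 59 and 42 fragments behind the FABP4 values and about 110 and 120 behind the DMSO values. On the log2(FPKM + 1) scale its fold change was -0.59 (SE 0.15), and with a pseudocount of 0.1 it was -0.998. SPRY4 passed the filter on low values through the DMSO libraries alone, since both FABP4 libraries lay under 1 FPKM. SPRY2 had 5.02 and 5.80 FPKM in FABP4 cells, against 5.08 and 5.82 FPKM in DMSO cells, and its log2 fold change of -0.0093 (SE 0.13) changed sign with single libraries left out.

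The SPRED proteins, relatives of Sprouty that bring neurofibromin to the membrane to switch RAS off, differed little between the conditions. SPRED1 had 3.94 and 4.03 FPKM in FABP4 cells, against 4.46 and 4.43 FPKM in DMSO cells, a ratio of 0.897. SPRED2 had 8.37 and 8.20 FPKM in FABP4 cells, against 8.89 and 9.22 FPKM in DMSO cells, a ratio of 0.915. In both genes the libraries of a condition lay close together and the FABP4 libraries lay below. Their log2 fold changes of -0.13 and -0.11 (SE 0.13 and 0.12) are about as large as their standard errors.

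Of the ETS factors, ETV5 carried the clearer difference. ETV5 (gene ID 2119, chromosome 3, 186046308 to 186110318, GRCh38) had 4.44 and 3.71 FPKM in FABP4 cells, against 6.53 and 6.62 FPKM in DMSO cells. The DMSO libraries were nearly equal, and both FABP4 libraries lay at 0.560 to 0.680 times them. Its log2 fold change was -0.58 (SE 0.13) and stayed between -0.69 and -0.48 with 1 library left out. ETV4 had 0.51 and 1.56 FPKM in FABP4 cells, against 1.78 and 1.23 FPKM in DMSO cells. These groups overlapped, and FABP4 replicate 1 stood alone, with about 13 fragments behind its value if all came from the longest transcript. The ETV4 log2 fold change of -0.34 (SE 0.20) became 0.040 without FABP4 replicate 1 and -0.72 without FABP4 replicate 2, so 1 library decides its direction.

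PHLDA1, a growth factor-induced gene that enters common signatures of MEK and ERK output, had 61.31 and 57.36 FPKM in FABP4 cells, against 55.41 and 62.07 FPKM in DMSO cells. The groups overlapped fully. With an estimated 5049 to 6285 fragments in each library, if all came from the longest transcript, it is the most deeply counted of the 10, and its single pair ratios ran from 0.924 to 1.11.

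**Figure D2:**
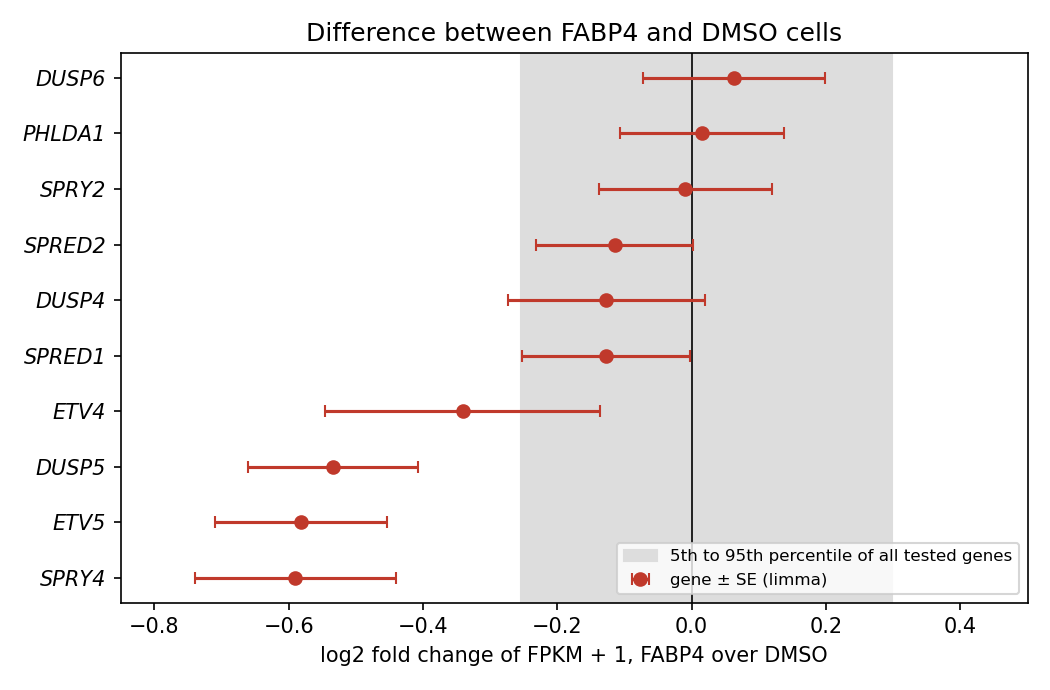
Log2 fold change of FPKM + 1, FABP4 over DMSO, of each of the 10 genes with its standard error from limma, over a grey band from the 5th to the 95th percentile of the 12490 tested genes (-0.25 to 0.30). SPRY4, ETV5, DUSP5 and ETV4 lie left of the band and the other 6 genes lie within it.

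Set against all tested genes, 6 of the 10 had both FABP4 libraries below both DMSO libraries (SPRY4, ETV5, DUSP5, SPRED1, SPRED2 and DUSP4), and none had both above. Over all 12490 tested genes, the first pattern was seen in 16.1% and the second in 20.7%. The median log2 fold change was -0.13 over the 10 members, 8 of them below 0, and 0.014 over all tested genes, 46% of them below 0. In the fit of limma over all tested genes 1 of the 10, ETV5, had an adjusted p under 0.05, as did 0.592% of tested genes, and nothing is read from this because the members were chosen on this contrast. With 1 library left out, a condition is left with 1 library, which the fit assumes to vary like the others, and a degree of freedom is lost. The ETV5 call was lost in 3 of these 4 fits: its limma adjusted p of 0.0489 became 0.33 when FABP4 replicate 2 was left out, 0.0685 when DMSO replicate 1 was and 0.113 when DMSO replicate 2 was, and all alternatives together spanned 0.00266 to 0.578. It was kept when FABP4 replicate 1 was left out (limma adjusted p = 0.0252). With the shared replicate numbers as a block it was 0.09. The low end of the ETV5 span came from a crossed replicate block, chosen after seeing the data. Apart from that block, the lowest limma adjusted p of ETV5 was 0.0115, at equal totals.

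In the authors' deposited table, whose DESeq2 analysis works on counts, 2 of the 10 were lower with a q under 0.05, as were 0.488% of the 18019 genes with a q (0.655% in either direction). The authors' deposited table gives ETV5 a log2 fold change of -0.75 (q = 0.00227) and SPRY4 one of -1.09 (q = 0.0152). In the authors' deposited table DUSP5 follows at -0.50 (q = 0.231), and the other 7 members have a q of 0.998.

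**Figure D3:**
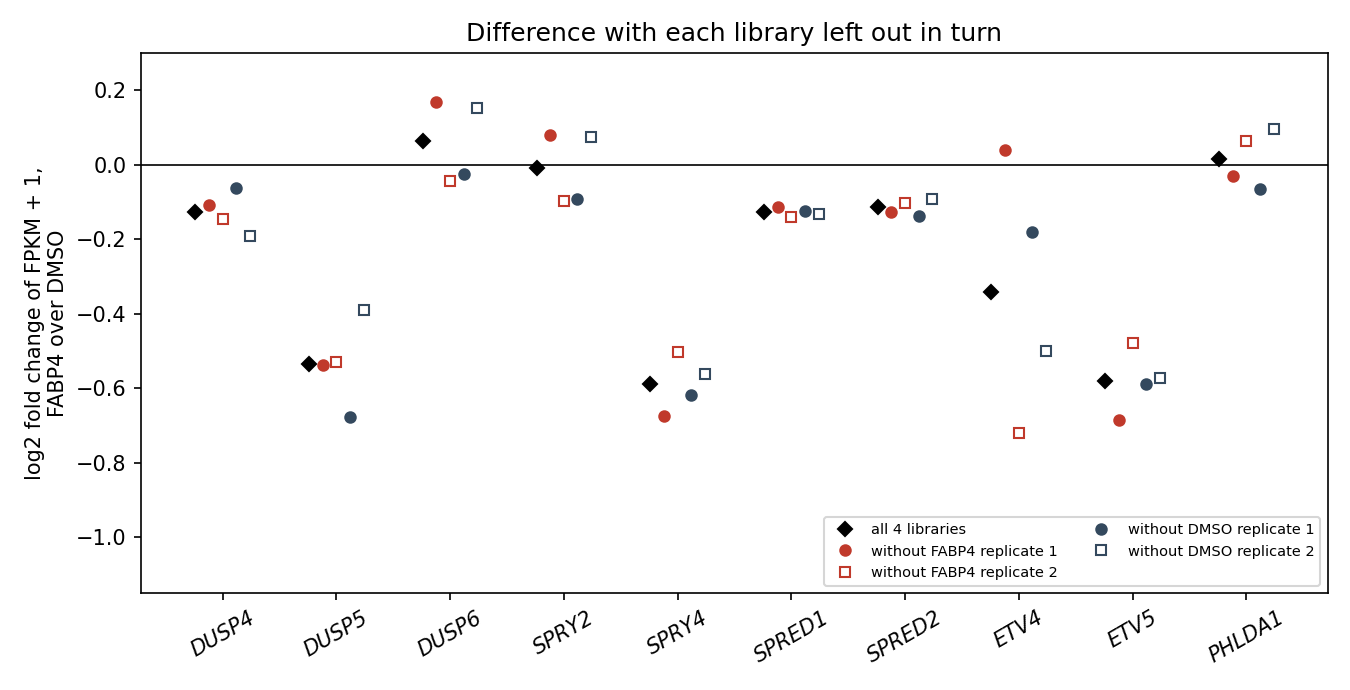
Log2 fold change of FPKM + 1, FABP4 over DMSO, of each gene with all 4 libraries (diamond) and with each library left out in turn (red for FABP4, dark blue for DMSO, circles for replicate 1, squares for replicate 2). SPRY4, ETV5, DUSP5, SPRED1, SPRED2 and DUSP4 stay below 0 in every case shown, while DUSP6, SPRY2, ETV4 and PHLDA1 cross 0. For the genes that stay below 0 the sign was fixed in advance, because both FABP4 libraries lay under both DMSO libraries. Only the size of their fold change could move.

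Ratios of relatives within a library are free of any scaling between libraries. The pairs SPRY2 with SPRY4 and DUSP5 with DUSP6 lie across the split described above. SPRY2 stood at 5.28 and 7.95 times SPRY4 in FABP4 cells, against 2.97 and 3.20 times in DMSO cells. DUSP5 stood at 2.31 and 1.91 times DUSP6 in FABP4 cells, against 3.24 and 3.44 times in DMSO cells. In neither ratio did the groups overlap. DUSP5 stood at 6.28 and 5.96 times DUSP4 in FABP4 cells, against 6.59 and 9.525 times in DMSO cells, so the nearest libraries were close. DUSP6 stood at 2.72 and 3.13 times DUSP4 in FABP4 cells, against 2.04 and 2.77 times in DMSO cells, with overlapping groups. SPRED2 stood at 2.12 and 2.04 times SPRED1 in FABP4 cells, against 1.99 and 2.08 times in DMSO cells, with overlapping groups. The ratio of ETV5 to ETV4 spread from 2.38 to 8.71 within the FABP4 libraries alone, against 3.67 and 5.38 in DMSO cells. These ratios use the same values as the fold changes above and are not further evidence of a difference.

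**Figure D4:**
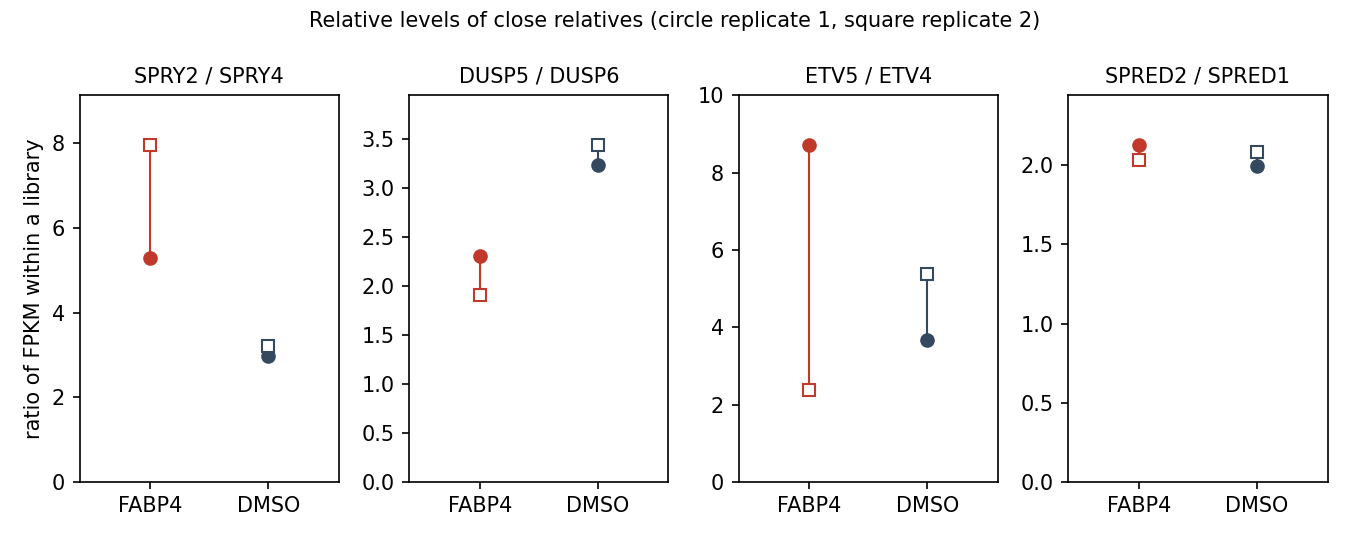
Ratio of the FPKM of 2 relatives within each library, for SPRY2 over SPRY4, DUSP5 over DUSP6, ETV5 over ETV4 and SPRED2 over SPRED1, with FABP4 left, DMSO right, circles for replicate 1 and squares for replicate 2, each axis from 0. The first is higher and the second lower in FABP4 libraries, without overlap, while ETV5 over ETV4 and SPRED2 over SPRED1 overlap.

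The other members of these families put the levels in context. Of 10 MAP kinase phosphatase genes, DUSP1 and DUSP10 made up most of the summed FPKM. DUSP1, an immediate early phosphatase, took 41.7% and 43.4% of the sum in FABP4 cells, against 41.3% and 42.1% in DMSO cells. DUSP5 took 6.62% and 6.14% in FABP4 cells, against 8.06% and 9.49% in DMSO cells, and DUSP6 and DUSP4 together stayed under the share of DUSP7 in each library. SPRY2 was the main Sprouty transcript, with 78.4% and 81.4% of the family's FPKM in FABP4 cells, against 70.8% and 72.2% in DMSO cells. SPRY4 took 14.8% and 10.2% of that sum in FABP4 cells, against 23.8% and 22.6% in DMSO cells. SPRY1 was listed at 0 in both FABP4 libraries, against 0.04 FPKM in each DMSO library. The PEA3 group (ETV1, ETV4 and ETV5) summed to 5.44 and 5.69 FPKM in FABP4 cells, against 8.81 and 8.42 FPKM in DMSO cells. ETV5 took 81.6% and 65.2% of that sum in FABP4 cells, against 74.1% and 78.6% in DMSO cells.

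Among the 13 further family members, 8 were tested and limma called none of them, beside 0.592% of all tested genes. An unadjusted p under 0.05 was seen in 3 of the 8, beside 9.68% of all tested genes, and in the authors' deposited table none had a q under 0.05. PHLDA2, an imprinted relative of PHLDA1, had 27.21 and 20.64 FPKM in FABP4 cells, against 37.32 and 33.34 FPKM in DMSO cells (log2 fold change -0.55, SE 0.13, limma adjusted p = 0.0776). SPRED3 had 2.94 and 3.67 FPKM in FABP4 cells, against 5.20 and 4.33 FPKM in DMSO cells (log2 fold change -0.42, limma adjusted p = 0.229). In both genes the FABP4 libraries lay below the DMSO libraries. The 8 tested relatives had a median log2 fold change of -0.080, with 7 below 0.

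Other transcripts that ERK raises went in both directions. Of 13 listed, 10 were tested, and in limma 1 fell and 1 rose, while 0.296% of all tested genes passed in each direction. An unadjusted p under 0.05 was seen in 8 of the 10, beside 9.68% of all tested genes, and 3 of the 13 (CCND1, FOS and FOSL1) had a q under 0.05 in the authors' deposited table, beside 0.655% of its genes with a q. CCND1, which encodes cyclin D1, fell to 45.31 and 46.07 FPKM in FABP4 cells, against 67.91 and 69.38 FPKM in DMSO cells (limma adjusted p = 0.0307, log2 fold change -0.58, SE 0.12). Replicates lay within 2 FPKM of each other in both conditions. The CCND1 call had a limma adjusted p of 0.0837 when DMSO replicate 1 was left out, 0.15 when DMSO replicate 2 was and 0.125 with the replicate block, each a lost call, and its alternatives spanned 8.38e-05 to 0.46. The log2 fold change itself stayed between -0.62 and -0.56 over them, and the call was kept when FABP4 replicate 1 (limma adjusted p = 0.0377) or FABP4 replicate 2 (limma adjusted p = 0.0399) was left out. The low end of the CCND1 span also came from the crossed replicate block, and apart from it the lowest limma adjusted p was 0.000291, at equal totals. The authors' deposited table gives CCND1 a q of 1.86e-05. FOS, an AP-1 subunit and immediate early gene, rose to 28.86 and 27.96 FPKM in FABP4 cells, against 10.19 and 7.60 FPKM in DMSO cells (limma adjusted p = 1.25e-05, log2 fold change 1.58, SE 0.13). FOSL1, an AP-1 subunit gene, had 127.44 and 122.26 FPKM in FABP4 cells, against 182.37 and 181.10 FPKM in DMSO cells (limma adjusted p = 0.0661, log2 fold change -0.54, SE 0.13), and its alternatives spanned 0.000551 to 0.482. The authors' deposited table gives FOSL1 a q of 1.05e-05. The list's median log2 fold change was -0.36, beside 0.014 over all tested genes. Of its 10 tested genes 7 were lower without overlap and 2 higher without overlap, beside 16.1% and 20.7% of all tested genes.

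Among genes of the cascade itself, of 11 receptors, 10 were tested, and of 12 adaptor and RAS genes and 10 kinases all were, with no gene past the threshold in limma and none with a q under 0.05 in the authors' deposited table. With 0.592% of all tested genes called, a count of 0 in lists of this size is near the background. An unadjusted p under 0.05 was seen in 3, 0 and 0 of them, beside 9.68% of all tested genes. Their medians were -0.017, 0.016 and -0.025, beside 0.014 for all tested genes. FGFR2, a fibroblast growth factor receptor gene, had 9.68 and 9.78 FPKM in FABP4 cells, against 6.35 and 7.05 FPKM in DMSO cells (log2 fold change 0.48, SE 0.12, limma adjusted p = 0.0857). PDGFRA, a platelet-derived growth factor receptor gene, had 3.75 and 4.30 FPKM in FABP4 cells, against 2.88 and 2.97 FPKM in DMSO cells (limma adjusted p = 0.315). In these 2 receptor genes the FABP4 libraries lay above the DMSO libraries. Of the 10 tested receptors 3 were higher without overlap (FGFR2, FGFR3 and PDGFRA) and 3 lower (EGFR, MET and IGF1R). Over all tested genes the shares were 20.7% and 16.1%.

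GAB1, a docking protein gene, had 1.77 and 1.77 FPKM in FABP4 cells, against 1.12 and 1.52 FPKM in DMSO cells (limma adjusted p = 0.649). SOS1, which loads RAS with GTP, had 4.89 and 5.40 FPKM in FABP4 cells, against 4.04 and 4.94 FPKM in DMSO cells (limma adjusted p = 0.814). Among the kinases BRAF had 5.92 and 7.05 FPKM in FABP4 cells, against 5.15 and 5.58 FPKM in DMSO cells (limma adjusted p = 0.624). The scaffold gene KSR1, which holds RAF, MEK and ERK together, had 5.80 and 6.78 FPKM in FABP4 cells, against 7.24 and 7.17 FPKM in DMSO cells (limma adjusted p = 0.765).

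Of the 7 transcription factors on the pathway limma called none, beside 0.592% of all tested genes, and 2 had an unadjusted p under 0.05, beside 9.68%. In the authors' deposited table none had a q under 0.05. SRF, the serum response factor that acts with ELK proteins on FOS, had 23.73 and 24.76 FPKM in FABP4 cells, against 32.47 and 29.27 FPKM in DMSO cells (log2 fold change -0.33, limma adjusted p = 0.277). ETS2 had 17.95 and 16.86 FPKM in FABP4 cells, against 20.25 and 22.81 FPKM in DMSO cells (limma adjusted p = 0.384). CIC, the repressor of ETV4, ETV5, DUSP6 and SPRY4 that ERK signalling relieves, had 30.85 and 35.28 FPKM in FABP4 cells, against 32.18 and 30.89 FPKM in DMSO cells (log2 fold change 0.064, limma adjusted p = 0.958). Its groups overlapped.

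Of 6 other feedback inhibitors 5 were tested and limma called none, beside 0.592% of all tested genes, and 2 had an unadjusted p under 0.05, beside 9.68%. None had a q under 0.05 in the authors' deposited table. ERRFI1, an inhibitor of the EGF receptor, had 24.89 and 25.18 FPKM in FABP4 cells, against 29.47 and 34.96 FPKM in DMSO cells (log2 fold change -0.35, limma adjusted p = 0.277). CBL, a ubiquitin ligase of activated receptors, had 1.26 and 1.43 FPKM in FABP4 cells, against 1.71 and 2.15 FPKM in DMSO cells (limma adjusted p = 0.506). The FABP4 libraries lay below the DMSO libraries in both.

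**Figure D5:**
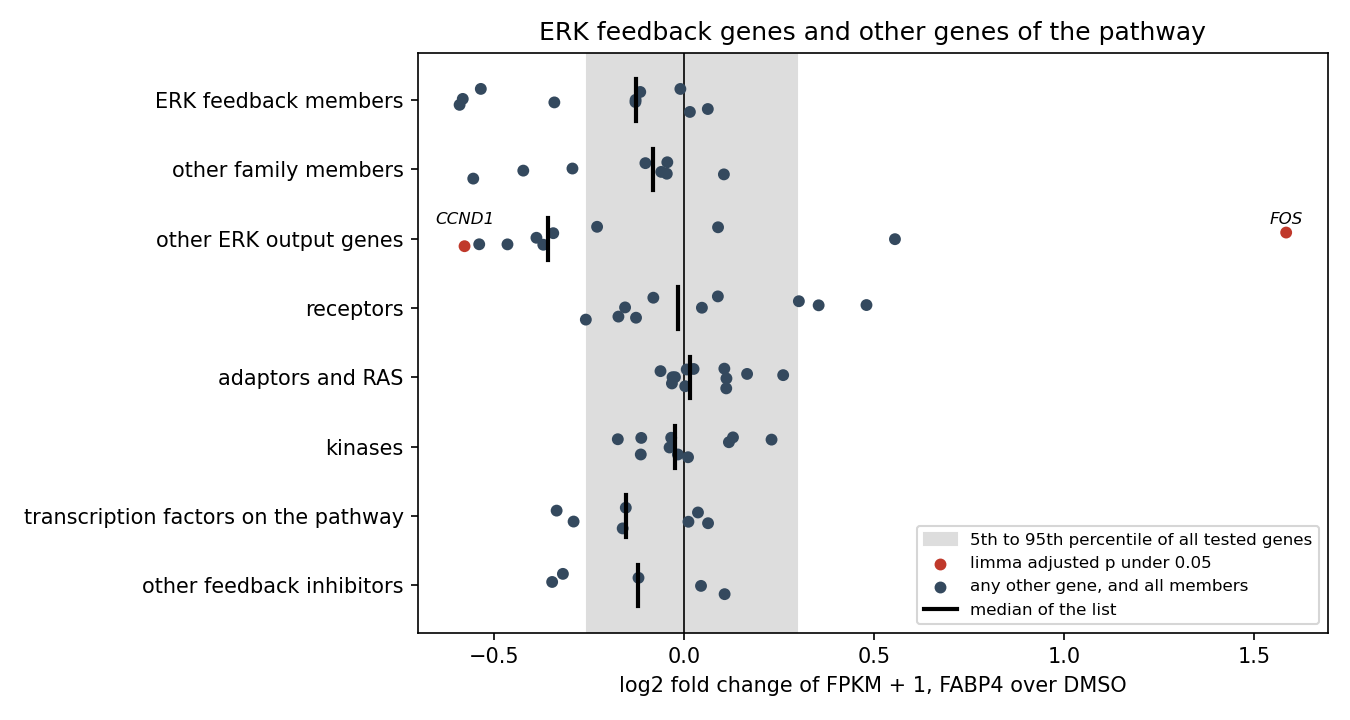
Log2 fold change of FPKM + 1, FABP4 over DMSO, of the 10 members (top) and of each tested gene of 7 other lists of the pathway, with the median of each list as a bar and the 5th to 95th percentile of all tested genes in grey. CCND1 and FOS, in red, are the genes of the 7 lists past the threshold, and adaptors, RAS and kinases lie within the grey band.

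By root mean square distance over the 4 libraries of log2(FPKM + 1) values centred on each gene, among 9109 other genes with a mean of at least 5 FPKM, the profiles nearest to the mean profile of the members included TRAM2, ELL2, E2F7 and THAP11, at 0.0089 to 0.017. TRAM2 had 31.57 and 32.85 FPKM in FABP4 cells, against 37.66 and 39.18 FPKM in DMSO cells. Nearest to SPRY4, the member with the largest fold change, were ACTA2, FOSL1, MARCHF4, FST and CCND1, at 0.022 to 0.070. The log2(FPKM + 1) scale shrinks the change of a low gene such as SPRY4, so this nearness is not an equal change in FPKM. The ratio of the FABP4 mean to the DMSO mean was 0.476 for SPRY4, against 0.687 for FOSL1 and 0.666 for CCND1. With 4 libraries many profiles are alike, and the distances are a description.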

How the data were processed

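The deposited table holds FPKM per gene and library, per the file headers. Beside them it gives the authors' own comparison from DESeq2: a log2 fold change, a p-value and a q-value. The submitters' processing notes list the authors' tools as RSEM 1.2.12, Bowtie2 2.2.5 and DESeq2 1.4.5, and the genome build as GRCh38.p13, with no roles. Groups come from the treatment labels. Values were taken as log2(FPKM + 1). Of 19215 genes, 12490 reached 1 FPKM in 2 or more libraries and were tested with limma 3.58.1 in R 4.3.3 (condition alone, variance trend, two-sided, Benjamini-Hochberg at 0.05), after the fit was tested on simulated data. The fold changes understate the change of low genes. Members and lists were chosen with earlier results of these data known. Named are all members, the called genes of each list or else the 2 with the smallest p, CIC, and the nearest profiles, 1 of which is not reported here. COL2A1, FOSL1, the FABP4 transcript and the family shares were picked with their values in view, and the alternatives for FOSL1 and the FABP4 transcript were added after seeing the data. To estimate depth, low FPKM of single-exon genes were fitted as whole fragments at an effective length reduced by 280 bases. Only 48.4% to 53.6% of the values used came within 0.1 of a whole fragment, so it is approximate, and counts were not recovered. Places of genes are from GENCODE 29 on GRCh38. Of the windows of 50 bases along the longest transcript, 3.33% in ETV5 and none in the other members also occur in another gene. Alternatives were other scalings, filters, pseudocounts and moderation, a replicate block and each library left out. A crossed replicate block, which swaps the FABP4 replicate numbers, was added after seeing the data and is included in the spans given over the alternatives. The spread behind the p-values is that between these libraries and may be technical.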

Additional observations from a re-analysis of the deposited data

How the results depend on the processing

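In limma 74 genes passed with the condition alone (37 higher, 37 lower), 47 with the replicate numbers as a block, 180 at equal totals (65 higher, 115 lower), 10 after quantile normalization (3 higher, 7 lower), 151 with at least 5 FPKM, 164 with robust moderation, 0 without the filter (1362 at an unadjusted p under 0.05) and 49 to 150 with 1 library left out. Of the 10 members 1 passed, ETV5. At equal totals and with robust moderation 3 passed (ETV5, DUSP5 and SPRY4), and with at least 5 FPKM 2 did (ETV5 and DUSP5). With the replicate block, quantile normalization, a pseudocount of 0.1 or no filter 0 passed (3 at an unadjusted p under 0.05 in each). With 1 library left out, which member passed, if any, depended on the library, and it was not always ETV5. Of the other pathway genes 2 passed; 5 passed at equal totals, 7 with at least 5 FPKM or robust moderation, 1 with the replicate block or quantile normalization, 0 without the filter (18 at an unadjusted p under 0.05) and 1 to 5 with 1 library left out. Deviations of same-numbered libraries correlated at -0.119 across genes, and no label ties a number to a shared batch or day. A crossed block, chosen after seeing the data, gave 418 calls, 3 of them members and 10 other pathway genes.

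Of 125 fold changes of the members under the 13 alternatives, 117 kept their sign. The other 8 were those of DUSP6, SPRY2, PHLDA1 and ETV4, with 1 library left out or, for PHLDA1, at equal totals (log2 fold change -0.030). The replicate block, the crossed block, the changed filters and robust moderation do not alter a fold change. Their values are part of the 117 but could not change sign. The same holds with 1 library left out for SPRY4, ETV5, DUSP5, SPRED1, SPRED2 and DUSP4. In those genes both FABP4 libraries lay below both DMSO libraries. The fold change of CIC was -0.030 without FABP4 replicate 2 and up to 0.16 with another library left out. With at least 5 FPKM as the filter, DUSP4, DUSP6, SPRY4, SPRED1 and ETV4 gave no value. Depth limits ETV4 most, with the fewest estimated fragments in every library, and then SPRY4 and DUSP4. The causes of these shifts were not tested.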
